A study of Mus musculus with 16 samples.

Results

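Fgf21, Gdf15, Bmp8b and Nrg4 encode proteins that fat tissue can release, and the 4 genes were followed across BAT and gWAT with and without Pgam1 deletion. They are 4 of the 22911 genes with a named probe on the array, chosen as stress hormones and as factors secreted by brown fat, through the RefSeq accessions of their probes. Whole brown adipose tissue (BAT) and gonadal white adipose tissue (gWAT) were profiled on 16 Agilent arrays in a single colour, 4 for each tissue and genotype. Adipo-Pgam1 KO mice carried Adipoq-Cre and Pgam1 flox/flox alleles, so that Cre made under the adiponectin promoter deletes the glycolytic enzyme gene Pgam1 in adipocytes of both brown and white fat, while whole tissue also holds cells outside the reach of this Cre. The littermate controls carried the same Pgam1 flox/flox alleles without Cre. All mice were male and of the C57BL/6NCrSlc strain, and were 16 weeks old except replicate 4 of the Adipo-Pgam1 KO groups in both tissues, which was 14 weeks old. The labels do not say that each array of a group came from a separate mouse, so the p-values measure the spread between these arrays.

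Fgf21 and Gdf15 are circulating hormones known as signs of cellular stress. The integrated stress response, in which kinases phosphorylate eIF2alpha and the transcription factor Atf4 is translated, is a known route to both genes. Fgf21 acts on cells that carry the receptor Fgfr1 with the co-receptor Klb, among them adipocytes, and Gdf15 acts on hindbrain neurons through Gfral and Ret to reduce food intake. Bmp8b, a bone morphogenetic protein, and Nrg4, a neuregulin of the EGF family, are known as factors released by brown adipocytes. Bmp8b signals through Smad proteins, and Nrg4 binds ErbB receptors.

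Levels are given as log2 of the signal over the 75th percentile of the array, so that 0 is the level of that percentile. They compare arrays for the same gene, and no level is set against that of another gene. Genes entered a tissue's test when the brightest probe passed the background flag throughout either genotype, that is on each of its 4 arrays. The comparison of genotypes used limma, and p-values were adjusted by the Benjamini-Hochberg method over all genes tested, with a threshold of 0.05. Where arrays of the dimmer group were not well above background, a fold is given as a bound. For it, each array of that group stands at the higher of its own value and the lowest signal well above background on that array. A p-value beside a bound belongs to the fitted change, and the bounds were not tested.

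Pgam1 itself was lower in BAT of Adipo-Pgam1 KO mice, with a log2 change of -1.74 (limma, adjusted p = 1.11e-05), but in gWAT it was higher under the Adipo-Pgam1 KO label, by 0.95 (adjusted p = 0.014). Each direction given for gWAT therefore rests on the label. The arrays lay on 3 slides. In each tissue all 4 arrays labelled Adipo-Pgam1 KO shared a slide with replicate 4 of the controls alone, so within-slide values rest on 1 control array. Under that label the BAT arrays lay on slide 2 and the gWAT arrays on slide 3, scanned on another day. Control replicates 1 to 3 lay on slide 1 in BAT and on slide 2 in gWAT. A difference between BAT and gWAT is thus also one between slides, in full under the Adipo-Pgam1 KO label and in part in controls. The skeletal muscle genes Ckm, Myh4, Myh1 and Actn3, at background on the other BAT arrays, were above it in replicates 1 and 3 of BAT of Adipo-Pgam1 KO mice. Epididymal genes summed to more than the 75th percentile of the array on 3 gWAT arrays, namely control replicate 1 and replicates 2 and 3 labelled Adipo-Pgam1 KO. Below, these 3 are called the arrays with epididymal genes, but some other gWAT arrays held them too. Of the 7 genes, 4 were above background in control replicate 4, and 3 and 4 in replicates 1 and 4 labelled Adipo-Pgam1 KO. The sums there were 0.436, 0.445 and 0.725, so leaving out the 3 arrays does not remove these genes.

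In BAT, 3 of the 4 genes rose and 1 fell. Relative to littermate controls, Fgf21, Gdf15 and Bmp8b were higher in the Adipo-Pgam1 KO group, against 27.5% of all genes tested that were called higher. They passed the background flag on only 1, 2 and 3 of the 4 control arrays. These 3 genes thus entered the test through the Adipo-Pgam1 KO group alone, which makes a call of higher more likely, and the share does not allow for this. Nrg4 was lower, against 33.9% of all genes called lower. The 2 groups did not overlap for any of the 4 genes, which was also true of 57.1% of the genes tested. In gWAT, Fgf21 and Gdf15 were higher under the Adipo-Pgam1 KO label, against 9.96% of genes called higher. The groups of both genes did not overlap, as for 24.2% of genes. Fgf21 entered that test through the arrays labelled Adipo-Pgam1 KO alone, since 3 of the 4 controls were well above background. None of the 4 genes was called lower in gWAT, against 7.86% of genes. Nrg4 did not pass the test there, and Bmp8b was not tested because it was not well above background on any gWAT array.

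**Figure D1:**
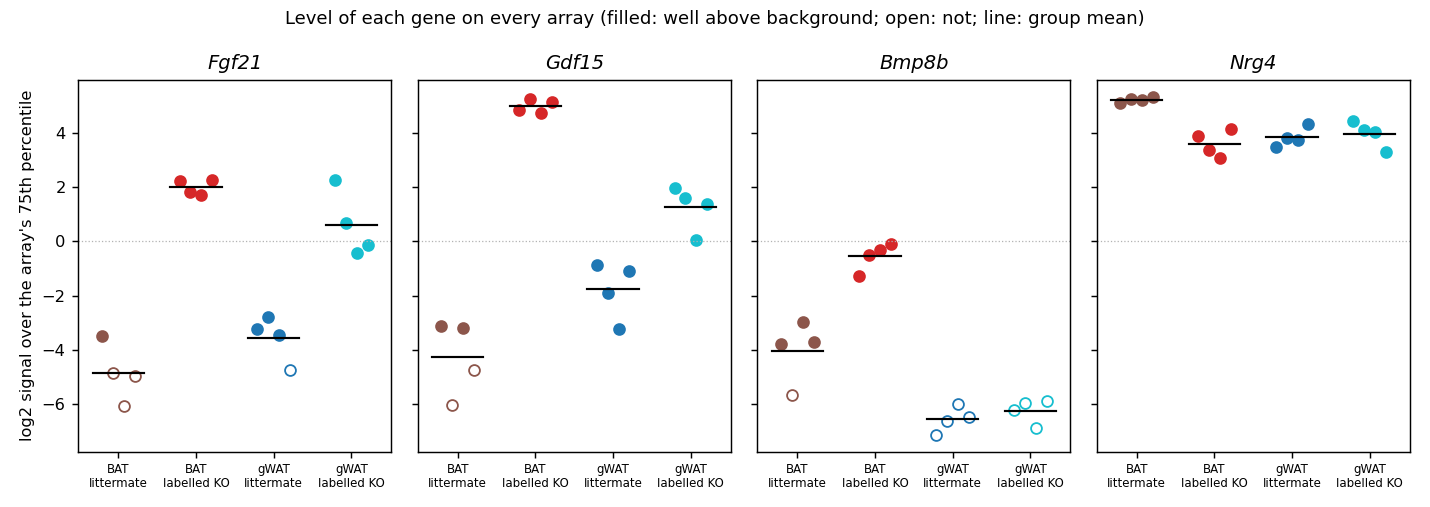
Level of Fgf21, Gdf15, Bmp8b and Nrg4 on each of the 16 arrays, as log2 signal over the array's 75th percentile (y axis), by tissue and genotype label (x axis, 4 arrays each, replicates 1 to 4 from left to right). Filled points are well above background, open points are not, and lines are group means; Gdf15 in BAT moves from a mean of -4.27 to 4.98, Bmp8b is at background on all gWAT arrays, and Nrg4 is highest in BAT of littermate controls.

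Fgf21 was near background in BAT of littermate controls, with levels of -3.51, -4.87, -6.07 and -4.97 in replicates 1 to 4, of which replicate 1 alone was well above background. In BAT of Adipo-Pgam1 KO mice the levels were 2.23, 1.81, 1.72 and 2.25, and all 4 arrays were well above background. The lowest Adipo-Pgam1 KO array thus stood 5.23 above the highest control. The log2 change was 6.86 (limma, standard error 0.46, adjusted p = 1.21e-05), or at least 58.4-fold. Within the shared slide the change was 6.97, and without the 2 arrays that held muscle genes it was 6.88 (adjusted p = 6.16e-04).

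In gWAT, Fgf21 stood at -3.24, -2.79, -3.45 and -4.74 in the controls, of which replicate 4 was not well above background. The arrays labelled Adipo-Pgam1 KO gave 2.24, 0.68, -0.42 and -0.12. All 4 were above every control, and replicate 1 was the highest. The log2 change was 4.15 (limma, standard error 0.61, adjusted p = 0.00513), or at least 16.4-fold, and it was 5.33 within the shared slide. Leaving out the 3 arrays with the highest epididymal sums, which leaves 5 arrays, gave 4.72 with an adjusted p of 0.055. The change of Fgf21 in gWAT was smaller than in BAT by 2.71 on the log2 scale (interaction of -2.71 in limma, standard error 0.83, adjusted p = 0.0147). With the slide as a fixed block the interaction was -1.64 (adjusted p = 0.374). With dim arrays treated as for the bounds, the changes were 5.87 in BAT and 4.03 in gWAT. The difference between these 2 values was not tested.

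The order of the Fgf21 group means was BAT of Adipo-Pgam1 KO mice at 2.0 ± 0.28 (SD, n = 4), gWAT labelled Adipo-Pgam1 KO at 0.60 ± 1.19, gWAT of controls at -3.56 ± 0.83 and BAT of controls at -4.86 ± 1.05. The 2 upper groups overlapped and differed by 1.40 (two-sided exact permutation test, p = 0.114, n = 4 against 4). The 2 lower groups overlapped as well (exact permutation test, p = 0.0571), and since 3 of the 4 BAT arrays of controls were not well above background, gWAT is bounded at only 1.24-fold higher and the order of these 2 groups is not settled. The step between the upper and the lower groups passed with 0.0286, the smallest exact permutation p that 4 arrays against 4 can give. These p-values are unadjusted and belong to 24 pairs of groups compared for the 4 genes. In limma over all 16 arrays, the difference between BAT and gWAT had an adjusted p of 0.063 in controls and of 0.0633 in the groups labelled Adipo-Pgam1 KO.

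Gdf15 had the largest log2 change of the 4 genes in BAT. In littermate controls its levels were -3.14, -6.02, -3.18 and -4.74, and replicates 2 and 4 were not well above background. In BAT of Adipo-Pgam1 KO mice they were 4.85, 5.23, 4.71 and 5.14. The Adipo-Pgam1 KO arrays lay within 0.53 of each other and 7.85 above the highest control. The log2 change was 9.25 (limma, standard error 0.59, adjusted p = 1.11e-05), or at least 385-fold. It was 9.73 within the shared slide and 9.46 without the arrays that held muscle genes (adjusted p = 5.18e-04).

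In gWAT, Gdf15 was well above background on all 8 arrays. The controls gave -0.87, -1.91, -3.22 and -1.08, and the arrays labelled Adipo-Pgam1 KO gave 1.97, 1.60, 0.04 and 1.37. Replicate 3 was the lowest array in both groups, and the groups did not overlap, with a gap of 0.91. The log2 change was 3.01 (limma, standard error 0.57, adjusted p = 0.0122), an 8.08-fold difference. Only 15 of the 13276 genes measured on all 8 gWAT arrays had a higher change. Within the shared slide the change was 2.32, and with the slide as a fixed block it no longer passed (adjusted p = 0.241). Without the 3 arrays with epididymal genes it was 3.74 (adjusted p = 0.0513).

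The change of Gdf15 was smaller in gWAT than in BAT by 6.24 on the log2 scale (interaction of -6.24 in limma, standard error 0.89, adjusted p = 9.03e-05). With dim arrays treated as for the bounds, the change was 8.59 in BAT, against 3.01 in gWAT, where no array was dim. The order of tissues also turned with the genotype label. In littermate controls, 2 of the 4 BAT arrays were not well above background. BAT differed there from gWAT by -2.5 on the log2 scale (limma over 16 arrays, adjusted p = 0.00286). As a bound, gWAT was at least 3.57-fold higher, although the groups overlapped (exact permutation test, p = 0.0857). In the groups labelled Adipo-Pgam1 KO, BAT was above gWAT by 3.74 (adjusted p = 2.86e-04), and the groups, which lay on different slides, did not overlap. The group means were 4.98 ± 0.24, 1.24 ± 0.84, -1.77 ± 1.07 and -4.27 ± 1.38 (SD, n = 4) in the order BAT of Adipo-Pgam1 KO mice, gWAT labelled Adipo-Pgam1 KO, gWAT of controls and BAT of controls.

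**Figure D2:**
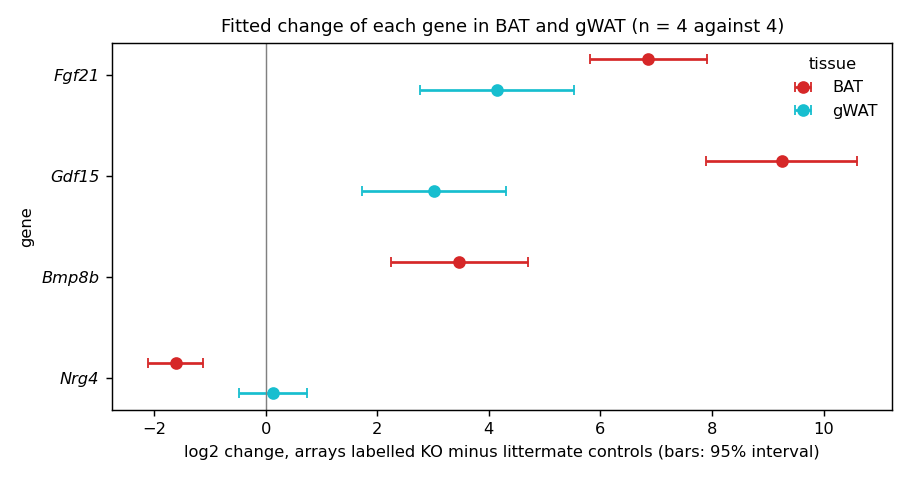
Fitted log2 change of each gene (x axis, arrays labelled KO minus littermate controls) in BAT and gWAT, with bars for the 95% interval from limma on 4 against 4 arrays. Gdf15 and Fgf21 rise in both tissues, with larger fitted changes in BAT, where control arrays were dim. With the slide as a fixed block, neither the tissue difference of Fgf21 nor the gWAT change of Gdf15 passed. Bmp8b has no gWAT point because it was at background there, and the gWAT interval of Nrg4 holds 0.

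Because Fgf21 and Gdf15 rose together, the 250 bases upstream of their transcription starts are shown, with matches to 2 short motifs in capitals. Sequences are from RefSeq on build GRCm38.p6. The Fgf21 window is chr7:45615491-45615740 on the minus strand. The Gdf15 window is that of the second of 2 annotated starts, chr8:70632096-70632345 on the minus strand. It is printed as the only 1 of the 2 with a match, so a match in it is not a finding about Gdf15.
Fgf21: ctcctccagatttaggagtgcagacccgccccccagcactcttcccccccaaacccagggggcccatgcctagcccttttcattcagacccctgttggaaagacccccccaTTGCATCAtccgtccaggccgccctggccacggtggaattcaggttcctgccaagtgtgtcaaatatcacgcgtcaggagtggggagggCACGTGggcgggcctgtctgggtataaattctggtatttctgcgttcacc
Gdf15: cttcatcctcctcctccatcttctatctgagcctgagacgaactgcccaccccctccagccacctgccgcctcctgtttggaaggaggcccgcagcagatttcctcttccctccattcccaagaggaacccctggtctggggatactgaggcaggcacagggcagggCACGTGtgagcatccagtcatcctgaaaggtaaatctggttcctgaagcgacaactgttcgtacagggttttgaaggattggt
The Fgf21 window holds TTGCATCA, the reverse complement of a match to TGATGNAA, the composite element that Atf4 binds with C/EBP partners, at 139 to 132 bases before the start. TGATGNAA is found on either strand in 3.45% of the 32851 promoter windows. Both printed windows hold CACGTG, the E-box within which Tfeb and Tfe3 bind. It lies at 50 to 45 bases before the start of Fgf21 and at 83 to 78 bases before the second start of Gdf15. CACGTG is found in 6.02% of windows. The window of the other Gdf15 start and those of Bmp8b and Nrg4 held no match to either motif, to TGACGTCA (in 1.55% of windows), or to the direct repeat 1 and ER stress elements (in 0.0335% and 0.113%). The matches share no bases with each other.

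Bmp8b rose in BAT from levels of -3.78, -5.68, -2.96 and -3.70 in littermate controls, of which replicate 2 was not well above background, to -1.29, -0.52, -0.32 and -0.10 in Adipo-Pgam1 KO mice. The highest control was 1.67 below the lowest Adipo-Pgam1 KO array. The log2 change was 3.47 (limma, standard error 0.54, adjusted p = 5.83e-04), or at least 7.93-fold, and it was 3.14 within the shared slide. Without the arrays that held muscle genes the change was 3.72 (adjusted p = 0.00594).

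On the gWAT arrays Bmp8b ranged from -7.13 to -6.00 in controls and from -6.88 to -5.89 in those labelled Adipo-Pgam1 KO, not well above background on any of the 8. No fold between genotypes is given for this tissue. The fitted log2 difference of BAT over gWAT was 2.53 in controls (limma over 16 arrays, adjusted p = 2.29e-04). In the groups labelled Adipo-Pgam1 KO it was 5.68 (adjusted p = 4.24e-07). As bounds, these are at least 1.34-fold and 13.0-fold, and the bounds were not tested. Bmp8a, the neighbouring paralogue with a similar protein, was measured by a probe of its own on all 16 arrays. It was -2.01 ± 0.36 in BAT of controls and -1.79 ± 0.09 in that of the Adipo-Pgam1 KO group, a difference of 0.22 (adjusted p = 0.288), and differed by -0.81 in gWAT (adjusted p = 0.0815). Probe sequences were not used here, so that cross-hybridization between these paralogues was not checked.

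Nrg4 was the member well above background on every array, and it fell in BAT. Its levels were 5.10, 5.25, 5.21 and 5.33 in littermate controls and 3.87, 3.36, 3.06 and 4.12 in Adipo-Pgam1 KO mice. The controls lay within 0.24 of each other and all above every Adipo-Pgam1 KO array. The log2 change was -1.62 (limma, standard error 0.22, adjusted p = 2.71e-04), which leaves 0.324 of the control level. Of 12881 genes measured on all 8 BAT arrays, 12446 had a higher change, where the median over these genes was -0.13. The other 2 probes of Nrg4 changed by -1.13 and -1.32. The change was -1.73 within the shared slide and -1.49 without the arrays that held muscle genes (adjusted p = 0.00236).

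In gWAT, Nrg4 stood at 3.46, 3.81, 3.72 and 4.33 in controls and at 4.42, 4.10, 4.03 and 3.28 in the arrays labelled Adipo-Pgam1 KO. The groups overlapped, and replicate 4 was the highest control but the lowest array labelled Adipo-Pgam1 KO. The log2 difference was 0.13, with a 95% interval from -0.48 to 0.74 (limma, adjusted p = 0.772). The other 2 probes differed by -0.27 and 0.20, so the probes did not share a sign. By the brightest probe, the change in gWAT exceeded that in BAT by 1.75 (limma's interaction term, standard error 0.37, adjusted p = 0.00139). It did so by 1.36 with the slide as a fixed block (adjusted p = 0.102).

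BAT of littermate controls, the tissue that Nrg4 is known to be enriched in, exceeded gWAT of controls by 1.40 (limma over 16 arrays, adjusted p = 2.57e-04), and the groups did not overlap. In the groups labelled Adipo-Pgam1 KO the difference was -0.36, with an interval from -0.91 to 0.20 (adjusted p = 0.273). In the order of group means by the brightest probe, BAT of controls at 5.22 ± 0.10 (SD, n = 4) stood apart from the other 3 groups. Those 3 lay between 3.60 and 3.96 and overlapped, with exact permutation p-values from 0.314 to 0.686. By the second probe, BAT of controls at 4.48 ± 0.11 overlapped gWAT of controls at 4.08 ± 0.38. By the third probe these 2 groups did not overlap, at 4.54 ± 0.15 and 3.28 ± 0.34.

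Stress response genes moved on the same arrays as Fgf21 and Gdf15. Of a list of 19 genes of the integrated stress response and related regulators, 11 rose and 3 fell in BAT, where 27.5% of all genes tested were called higher and 33.9% lower. In gWAT 3 rose and none fell, where 9.96% of genes were higher and 7.86% lower. The median log2 change of the list was 0.63 in BAT, where the median over all genes tested was -0.08, and 0.14 in gWAT, where it was 0.05. In BAT without the arrays that held muscle genes, 10 rose and 3 fell, whereas none of the 19 passed in gWAT without the 3 arrays that held epididymal genes. The counts of higher and lower genes in BAT were 14 and 1 under spike-in scaling and 9 and 8 under Actb and Rplp0 scaling, which moved the median of all genes to 0.46 and -0.67. Among the 11, Tfe3 at 0.22 turned to -0.37 (limma, adjusted p = 0.0179) and Eif2ak3 at 0.55 turned to -0.04 under Actb and Rplp0 scaling.

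Atf4 itself ranged from 5.54 to 6.36 in BAT of controls and from 7.59 to 7.81 in the Adipo-Pgam1 KO group, with no overlap. Its change was 1.64 in BAT (limma, adjusted p = 8.22e-05) and 0.03 in gWAT (adjusted p = 0.952), and the tissues differed by -1.61 (interaction, adjusted p = 0.00296). Its mRNA does not report its translation. Trib3, a pseudokinase induced by Atf4 and Ddit3, rose by 4.30 in BAT (adjusted p = 5.68e-06) and by 2.85 in gWAT (adjusted p = 0.00479). Ddit3, the transcription factor CHOP, rose by 2.28 in BAT (adjusted p = 1.24e-04) and by 1.64 in gWAT (adjusted p = 0.0104). Atf5, a transcription factor related to Atf4, rose by 1.39 in BAT (adjusted p = 1.74e-05) and by 1.79 in gWAT (adjusted p = 0.00298). These 3 were the genes of the list that passed in both tissues.

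Ppp1r15a, which directs the dephosphorylation of eIF2alpha, rose by 2.60 in BAT (limma, adjusted p = 1.60e-05) and differed by 0.84 in gWAT (adjusted p = 0.0547). Chac1, Atf3, Asns, Eif2ak1, Eif2ak3, Tfeb and Tfe3 are named although they fall outside the rule for named genes, and were chosen after their values were seen. Chac1 and Atf3 rose by 3.85 and 3.66 in BAT and differed by 0.88 and 1.84 in gWAT without passing. Asns, the asparagine synthetase that Atf4 is known to induce, differed by 0.15 and 0.30 and did not pass in either tissue. The 3 genes that fell in BAT were Eif2ak1, a kinase of eIF2alpha, at -0.61, the lysosomal regulator Tfeb at -0.88, and Ppara, of which Ppara alone still passed under spike-in scaling. Ppara, the fatty acid sensor known to drive hepatic Fgf21, went from 6.29 ± 0.32 to 4.15 ± 0.26 (SD, n = 4), a change of -2.14 (adjusted p = 3.25e-05), while Fgf21 rose on the same arrays. In gWAT Ppara differed by 0.14 (adjusted p = 0.765).

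**Figure D3:**
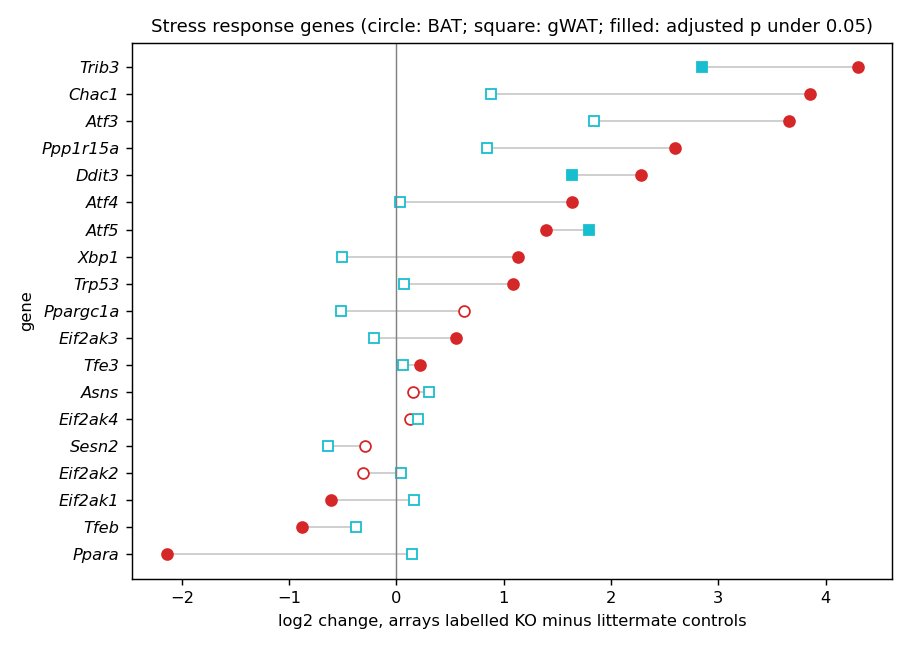
Log2 change (x axis, arrays labelled KO minus littermate controls, 4 against 4 arrays) of the 19 stress response genes (y axis) in BAT (circles) and gWAT (squares), filled where the adjusted p was under 0.05. In BAT 11 are filled above 0 and 3 below, and in gWAT the filled squares are Trib3, Ddit3 and Atf5.

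The receptors of the 4 factors were described by a list of 19 genes, of which 12 were tested in BAT and 14 in gWAT. In BAT 2 rose and 5 fell, against 27.5% and 33.9% of all genes tested, with a median change of -0.30. In gWAT none rose and 2 fell, against 9.96% and 7.86%, with a median of -0.26. Without the arrays that held muscle genes, 2 rose and 1 fell in BAT. Without those that held epididymal genes none passed in gWAT, where few of all genes passed on the 5 arrays left. Under spike-in scaling the median turned to 0.25 in BAT and 0.18 in gWAT, and under Actb and Rplp0 scaling 2 rose and 9 fell in BAT. Fgfr1, the receptor of Fgf21 in adipocytes, was lower in both tissues. It went from 3.99 ± 0.37 to 3.46 ± 0.14 in BAT, a change of -0.52 (limma, adjusted p = 0.0346), although the groups overlapped, and from 5.04 ± 0.23 to 4.33 ± 0.18 in gWAT, a change of -0.72 (adjusted p = 0.0189). Relative to the spike-in controls the differences of Fgfr1 were 0.02 and -0.27 and neither passed. In BAT it also did not pass under quantile normalization (-0.30, limma adjusted p = 0.171), normexp (-0.31, adjusted p = 0.163) or median centring (-0.49, adjusted p = 0.0506). In gWAT no receptor of the list passed under median centring. Klb, which makes Fgfr1 responsive to Fgf21, differed by -0.32 in BAT (adjusted p = 0.231) and by 0.61 in gWAT (adjusted p = 0.0547).

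Gfral, the hindbrain receptor of Gdf15, was well above background on 1 of 16 arrays, replicate 2 of gWAT labelled Adipo-Pgam1 KO, at -3.88. Its co-receptor Ret was dim in BAT and not tested there, and in gWAT it differed by -1.25 (limma, adjusted p = 0.101). Erbb4, the receptor to which Nrg4 binds, was not well above background on any array, and Erbb3 was so on the same single gWAT array as Gfral, at -0.49. Other ErbB receptors were measured throughout. Egfr rose in BAT by 1.56 (limma, adjusted p = 1.03e-04) and fell in gWAT, with a change of -0.84 (adjusted p = 0.0318) that did not pass under median centring or spike-in scaling. Erbb2 rose in BAT by 1.29 (adjusted p = 2.45e-04) and differed by -0.11 in gWAT (adjusted p = 0.777). Of the receptors for bone morphogenetic proteins and activins, Acvr2b fell by 0.90 in BAT (adjusted p = 0.00108), although its second probe differed by -0.16 and the change was -0.35 under spike-in scaling (adjusted p = 0.164). Bmpr2 differed by -0.25 in BAT (adjusted p = 0.0586) and by -0.12 in gWAT (adjusted p = 0.516), and Bmpr1a by -0.10 and -0.37, without passing in either tissue.

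A list of 16 Smad genes, Id genes and feedback genes of FGF and ErbB signalling had 15 genes tested in BAT, of which 4 rose and 3 fell, with a median change of 0.04. In gWAT none of 14 rose and 1 fell, with a median of -0.07. Of all genes tested, 27.5% were called higher and 33.9% lower in BAT, and 9.96% and 7.86% in gWAT. In BAT, 8 rose and 1 fell under spike-in scaling, and 1 rose and 8 fell under Actb and Rplp0 scaling. In BAT the inhibitory Smad6 fell by 1.37 (limma, adjusted p = 4.19e-04), and Id1, a target of Smad signalling, fell by 0.72 (adjusted p = 0.00551) but differed by -0.18 under spike-in scaling (adjusted p = 0.343). Etv5, a transcription factor induced by FGF signalling, rose by 1.25 (adjusted p = 0.00314) and differed by 0.48 in gWAT (adjusted p = 0.0637). The gene that fell in gWAT was Smad5, at -0.40 (adjusted p = 0.043), which was 0.04 under spike-in scaling, and Smad7, an inhibitory Smad, differed there by -0.85 (adjusted p = 0.0634).

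Among 11 further ligands of the same families, 5 were tested in BAT, and 1 rose and 1 fell, whereas none of 4 passed in gWAT. The shares over all genes tested were 27.5% higher and 33.9% lower in BAT, and 9.96% and 7.86% in gWAT. Nrg2, a neuregulin, was not well above background on any BAT array of controls and was so on all 4 of Adipo-Pgam1 KO mice. Its log2 change was 2.54 (limma, adjusted p = 9.66e-06), or at least 3.79-fold, although its second probe was at background on all BAT arrays. Btc, the EGF family ligand betacellulin, fell by 3.48 (adjusted p = 5.68e-06) in the same tissue as Nrg4 and differed by 0.32 in gWAT (adjusted p = 0.792). The second probe of Btc was at background on all BAT and gWAT arrays. Hbegf, another EGF family ligand, differed by 1.45 in BAT (adjusted p = 0.0585) and by -0.03 in gWAT.

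Other secreted factors of fat did not follow a single direction. The list holds 25 genes, and each tissue had 22 that could be tested. In BAT 4 rose and 7 fell, with a median change of -0.46, where 27.5% of all genes tested were called higher and 33.9% lower. In gWAT 1 rose and 3 fell, with a median of 0.05, where 9.96% were higher and 7.86% lower. In BAT, 8 rose and 5 fell under spike-in scaling, and 3 rose and 13 fell under Actb and Rplp0 scaling. The adipokine adiponectin, Adipoq, fell in BAT, with a change of -2.0 (limma, adjusted p = 3.59e-05), and in gWAT, with -0.89 (adjusted p = 0.0235), a call lost under median centring and spike-in scaling. The retinol carrier Rbp4 fell in both as well, with changes of -3.56 (adjusted p = 1.86e-05) and -2.18 (adjusted p = 0.00302). Resistin, Retn, fell by 0.95 in gWAT (adjusted p = 0.0131; 0.061 under median centring) and differed by -1.13 in BAT (adjusted p = 0.0578). Slit2, a guidance factor also released by beige fat, rose in BAT by 3.82 (limma, adjusted p = 1.84e-05), or at least 3.64-fold. It was not well above background on any control array there. Its other probes were at background on all BAT and gWAT arrays. Angptl8, a regulator of lipoprotein lipase, rose by 1.83 in gWAT (adjusted p = 0.0143) and differed by -0.52 in BAT (adjusted p = 0.0824).

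Markers of cell types moved on the same arrays, and their part in the changes of the 4 genes was not tested. In whole tissue, fewer cells of a type and less RNA per cell cannot be told apart. Of 10 macrophage genes, cells in which Gdf15 can also be made, 9 rose and none fell in BAT. Of all genes tested there, 27.5% were called higher and 33.9% lower. The summed signal of the macrophage genes was 28.0 to 40.0 times the 75th percentile in BAT of controls and 103 to 151 times in the Adipo-Pgam1 KO group. No marker was at background throughout in either group. In gWAT 3 of the 10 rose, against 9.96% of all genes tested. The sums were 68.6 to 93.8 in controls and 76.3 to 249 in the arrays labelled Adipo-Pgam1 KO, again with every marker above background on some array. Without the 3 arrays that held epididymal genes none of the 10 passed in gWAT, and 1 rose under quantile normalization, normexp, or Actb and Rplp0 scaling. In replicates 1 to 4 of gWAT labelled Adipo-Pgam1 KO, the macrophage sums were 76.3, 105, 127 and 249. The Gdf15 levels on these arrays were 1.97, 1.60, 0.04 and 1.37. In BAT both the macrophage sums and Gdf15 were higher in the Adipo-Pgam1 KO group. Whether the 2 are linked was not tested, and 4 arrays of a group are too few to show it.

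Of 10 brown adipocyte genes, 8 fell and none rose in BAT, against 33.9% and 27.5% of all genes tested. The sums were 4360 to 4710 in controls and 1430 to 2330 in Adipo-Pgam1 KO mice, and all 10 were above background on every BAT array. All 6 genes shared by brown and white adipocytes fell in BAT as well. Under quantile normalization 6 of the 10 and 4 of these 6 fell, and Fabp4 turned from -0.98 to 0.04. Under spike-in scaling 6 of the 10 and 5 of the 6 fell, and under Actb and Rplp0 scaling all of both lists. In gWAT 5 of the 7 brown adipocyte genes tested rose, against 9.96% of all genes tested. Without the 3 arrays that held epididymal genes, 1 of the 7 passed, where few of all genes passed on the 5 arrays left. The sums of the 10 genes were 26.1 to 62.7 in controls and 129 to 332 in the arrays labelled Adipo-Pgam1 KO. Ucp1 and Zic1 were at background on all gWAT controls, Zic1 on all 8 gWAT arrays, and Ucp1 was above background on 3 of the 4 labelled Adipo-Pgam1 KO. Nrg4 thus fell in the tissue where the brown adipocyte genes fell, whereas in gWAT, where they rose, its difference was 0.13. The tissue labels were borne out by Ucp1, which was at least 8.26 on the BAT arrays and at most -0.15 in gWAT.

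Skeletal muscle is a tissue known to release Fgf21. The muscle genes Ckm, Myh4, Myh1 and Actn3 together summed to 0.0491 to 0.0736 times the 75th percentile in BAT of controls, where all 4 were at background, and to 40.7, 0.0612, 7.65 and 0.0955 in replicates 1 to 4 of Adipo-Pgam1 KO mice. Replicates 2 and 4, with the 4 genes at background, had Fgf21 levels of 1.81 and 2.25, and replicates 1 and 3 had 2.23 and 1.72. The other 4 genes of the muscle list were above background on every BAT array and did not share a direction. Myl1 fell from 5.41 ± 0.12 to 3.37 ± 1.01 (SD, n = 4, limma adjusted p = 0.00328). Acta1 rose by 3.11 (limma, adjusted p = 0.0291), although the groups overlapped. Tnnt3 and Mylpf differed by 2.92 and 1.54 without passing.

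**Figure D4:**
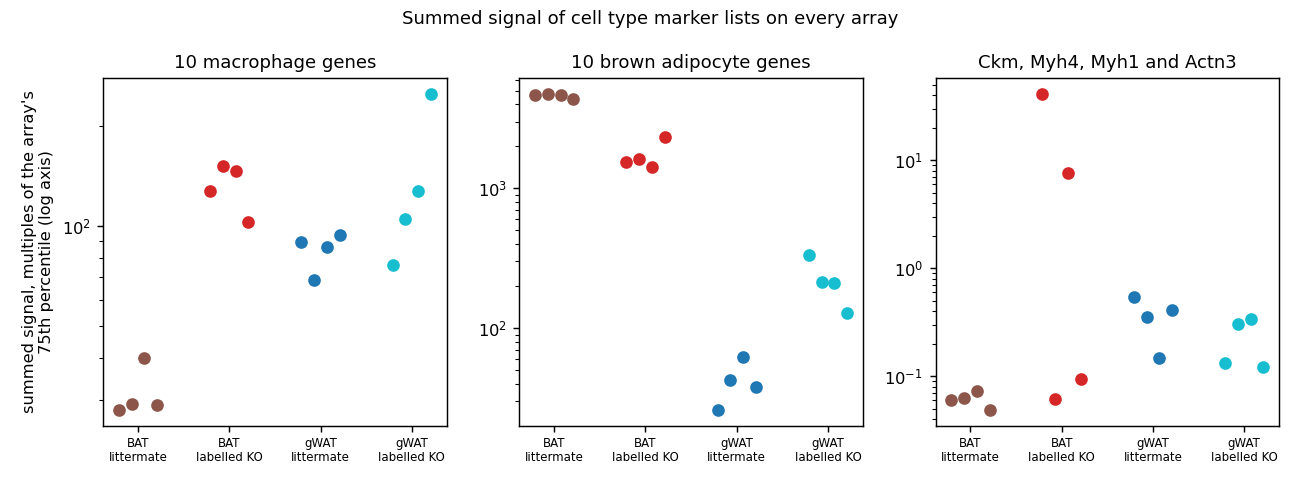
Summed signal of 10 macrophage genes, 10 brown adipocyte genes and the 4 muscle genes Ckm, Myh4, Myh1 and Actn3 on each array (y axis, multiples of the array's 75th percentile, log axis), by tissue and genotype label (x axis, replicates 1 to 4 from left to right). In BAT the macrophage sums of Adipo-Pgam1 KO mice (103 to 151) lie above those of controls (28.0 to 40.0) and the brown adipocyte sums below, in gWAT the brown adipocyte sums lie higher under the KO label, and the muscle sums of BAT stand out in replicates 1 and 3 under that label.

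The genes whose pattern over the 16 arrays was most like that of each member were taken from 14794 candidates by Pearson correlation. The correlations are a description over 16 arrays that share tissues, genotypes and slides. Fgf21 was most like Arhgef2 (r = 0.966), Cox6a2, Ephx1, Gadd45a and Ddx46. Gdf15 was most like Aldh18a1 (r = 0.967), an enzyme of proline synthesis, followed by Cbr3, Tuba1c, Ccdc92 and Pck2. Bmp8b was most like 1700011M02Rik (r = 0.974), Tex30, Hk1, Tdp2 and 1700018G05Rik. Nrg4 was most like Mrps15 (r = 0.961), a protein of the mitochondrial ribosome, Tmem185a, the peroxisomal Pex3, the valine catabolic enzyme Hibadh and Dgcr6. Between the members, r was 0.92 for Fgf21 with Gdf15, 0.57 for Gdf15 with Bmp8b, 0.43 for Fgf21 with Bmp8b, -0.61 for Fgf21 with Nrg4, -0.68 for Gdf15 with Nrg4 and -0.10 for Bmp8b with Nrg4.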

How the data were processed

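Total RNA of 16 samples was labelled with Cy3 and hybridized to Agilent SurePrint G3 Mouse GE arrays. The authors deposited the signal intensity of each spot, background-subtracted by Agilent Feature Extraction 10.7.1.1 per the file headers, and a table of intensities normalized in GeneSpring GX, used here as an alternative. The labels and the study's methods differ in the amount of RNA labelled. Spots of each of the 56605 probes were averaged, leaving out control spots and outlier flags, and log2 was taken over the 75th percentile of the array. The percentile was 401.3 to 451.3 in BAT of controls, 650.2 to 916.2 in BAT of Adipo-Pgam1 KO mice, 570.3 to 855.3 in gWAT of controls and 656.8 to 831.3 in gWAT labelled Adipo-Pgam1 KO. Per array, 50.0% to 62.2% of probes passed the flag for signal well above background, and precision is limited by the number of arrays. RefSeq accessions of 32994 probes matched 1 symbol each, 91.9% of those with a RefSeq accession. The brightest probe stood for a gene, and each member matched, Nrg4 with 3 probes and the others with 1. In all, 14270 genes were tested in BAT and 14135 in gWAT with limma 3.58.1 in R 4.3.3, with the interaction and the tissue contrasts fitted over all 16 arrays. Simulated data held 100 probes changed by each size, among 29921 probes in BAT and 29178 in gWAT. Of those changed by 2 on the log2 scale, 94% were recovered in BAT and 88% in gWAT, and 57% and 64% of those changed by 1. On the arrays themselves 61.5% and 17.8% of genes were called, so these rates do not give the sensitivity of the reported tests. Group orders were compared by two-sided exact permutation tests.

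The members, gene lists, markers and motifs were chosen with earlier results of these data known. Named list genes are the 3 with the smallest adjusted p in each tissue, plus Fgfr1, Klb, Gfral, Ret, Erbb3, Erbb4, Bmpr2, Atf4, Ddit3, Ppara and Bmp8a; the text says where others were named after their values were seen. Alternatives were other scalings (quantile, median, spike-in, Actb and Rplp0), normexp background correction, the filter on dim genes, the test, slide and replicate blocks, other probes, and leaving out arrays. The mean spot signal was not used for normexp, and the median spot signal took its place. Leaving out the arrays with muscle or epididymal genes, leaving out single arrays in the interaction and tissue contrasts, and the third probe of Nrg4 were chosen after seeing the data. The sources used here do not say whether the Pgam1 probes lie in the deleted sequence.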

Additional observations from a re-analysis of the deposited data

Results flagged for a closer look

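The change under the Adipo-Pgam1 KO label differed between BAT and gWAT for the 3 genes tested in both tissues, by the interaction term in limma. Bmp8b was set aside, since it was at background on every gWAT array. In BAT of controls, Fgf21 was well above background on 1 of 4 arrays and Gdf15 on 2 of 4. The sizes of these 2 interactions thus depend on dim signals. For Fgf21 the change in gWAT minus that in BAT was -2.71 (adjusted p = 0.0147), from 6.86 in BAT and 4.15 in gWAT. For Gdf15 it was -6.24 (adjusted p = 9.03e-05), from 9.25 and 3.01. For Nrg4 it was 1.75 (adjusted p = 0.00139), from -1.62 and 0.13, and with the slide as a fixed block neither Fgf21 nor Nrg4 passed. No array stood apart from its group in any of the 16 groups of 4 arrays, 4 per gene, where chance marks about 1 in 20.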

How the results depend on the processing

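The direction and call of all 4 genes in BAT held under every alternative tried, with log2 changes of 4.74 to 7.40 for Fgf21, 7.52 to 9.80 for Gdf15, 2.15 to 4.02 for Bmp8b and -2.21 to -1.08 for Nrg4. No called direction of the 4 genes was reversed. Bmp8b in gWAT and its interaction were not given, since no gWAT array measured it.
With the slide as a fixed block, Gdf15 in gWAT was 2.32 (adjusted p = 0.241), and the interactions of Fgf21 and Nrg4 were -1.64 and 1.36 and no longer passed. Without the arrays with epididymal genes, which leaves 5 arrays, Fgf21 and Gdf15 in gWAT were 4.72 and 3.74 and no longer passed, and 217 genes passed.
Under spike-in scaling, Nrg4 in gWAT was 0.57 (adjusted p = 0.031) and the difference between BAT and gWAT under the KO label was -0.49 (adjusted p = 0.0459). That scaling moved the median of all genes to 0.46 in BAT and 0.49 in gWAT, and the share of calls that were higher from 44.8% to 79.7% in BAT and from 55.9% to 95.3% in gWAT, whereas Actb and Rplp0 scaling gave 17.7% in BAT and median centring 71.1% in gWAT.
The difference of Fgf21 between BAT and gWAT, outside the threshold as reported, passed in controls under quantile normalization (-1.45) and spike-in scaling (-1.53), and under the KO label with normexp (1.35). Leaving out single arrays it ranged from -1.75 to -0.90 in controls and from 1.07 to 1.95 under the KO label, past the threshold in some, and it was -0.17 with the slide block under the KO label.
The count of genes past the threshold was 8771 in BAT, and 17120 with every probe tested. In gWAT it was 2519, and 1140 to 3230 leaving out single arrays, falling by over 1.5 times without replicates 1 (1164), 2 (1282) and 3 (1140) labelled Adipo-Pgam1 KO and control replicates 2 (1180) and 3 (1579). It was 184 with the slide block, 1379 with median centring, 5092 with spike-in scaling, 1134 with no filter on background, 4022 with all 16 arrays in the fit, 5764 with every probe and 1612 with the methods' t-test after Benjamini-Hochberg, of 4666 at an unadjusted p under 0.05. The cause of these moves was not tested.
Correlations of the deviations of same-numbered samples ran from -0.12 to 0.51, and in no pair of groups were all 4 above 0.1, so the numbers were not taken as pairs. With a replicate block, 1083 genes passed in gWAT and 8604 in BAT, Fgf21 under the KO label differed between tissues by 1.40 (adjusted p = 0.0392), and no other call of the 4 genes changed. Not every sample correlated best with its own number.
Signal over background limits Fgf21, Gdf15 and Bmp8b in controls, where the size of the change depends on how the dim arrays are treated: with normexp the changes in BAT were 4.74, 7.52 and 2.15.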
